A study of Mus musculus with 10 samples.

Results

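Between Nosip and Slc17a7 on mouse chromosome 7 lie 8 neighbouring genes that were lower in the hearts of one litter than in those of the other. They were chosen by that difference out of 24537 genes counted by RNA-seq (the selection used the litter levels in these same 10 mice), so their litter levels are given as a description and without a test. The genes are Nosip, Rcn3, Fcgrt, Rpl13a, Flt3l, Aldh16a1, Pih1d1 and Slc17a7, which run from position 45062429 to 45176139 of chromosome 7 in the mm10 genome, a stretch of 113.7 kb. What the choice did not use, the genotype within each litter, sex and the surrounding genes, was compared across mice.

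Hearts were taken at 6 weeks of age from 5 control mice (Rosa26-rtTA2+/-;TRE-SOD2-shRNA-/-) and 5 iSOD2 mice (Rosa26-rtTA2+/-;TRE-SOD2-shRNA+/-) of both sexes. All 10 carried the doxycycline-dependent transactivator rtTA2 and were exposed to doxycycline in utero only. The iSOD2 mice alone carried a hairpin against Sod2, whose product clears superoxide inside mitochondria. The mice came from crosses of wild-type C57BL/6J dams with transgenic sires. Litter A held control 1 and control 2 (both male), iSOD2 7 (male) and iSOD2 8 (female). Litter B held control 3 (male), control 4 and control 6 (both female), iSOD2 5 and iSOD2 10 (both female) and iSOD2 9 (male). The labels name a litter but give no birth, dissection or sequencing date, so whatever else differed between the litters cannot be told apart from the litter itself. Each side of the litter comparison is a single litter, so its p-values measure the spread between mice and not between litters.

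Libraries held 18488869 to 23461589.5 counts over genes in litter A and 16448090.5 to 24263085.5 in litter B. Levels are normalized counts, the deposited counts divided by a size factor for each library. Sod2, the target of the hairpin, had a median of 10679.9 normalized counts in controls (range 9561 to 11019) and of 10724 in iSOD2 mice (10117 to 11306), and the groups overlapped (log2 0.03, SE 0.05, DESeq2 adjusted p 0.802 with litter in the model). The summed level of 8 ventricular cardiomyocyte markers was 1761650 to 1921720 in litter A and 1566530 to 1719920 in litter B. Every heart of litter A was thus above every heart of litter B in this sum, with 0 of the 8 called between litters. The part of this sum in the litter differences below was not tested. Of 4 atrial markers, Nppa was called lower in litter B (log2 −1.53, SE 0.50, DESeq2 adjusted p 0.0493). The others were not called and leaned higher in litter B: Myl7 1.86 (SE 1.37), Myl4 0.17 (SE 0.80) and Sln 2.74 (SE 3.08). Nppa alone had 1029 to 7592 normalized counts in litter A and 498 to 1879 in litter B. The summed level of the 4 was 1084 to 7655 in litter A, highest in iSOD2 8, and 517 to 2748 in litter B, which overlapped, and its part in the litter differences below was not tested.

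The 8 genes have unrelated roles. Slc17a7 encodes VGLUT1, which loads glutamate into synaptic vesicles and is known as a marker of excitatory neurons of the cortex rather than of heart muscle. Fcgrt encodes the heavy chain of the neonatal Fc receptor, which rescues IgG and albumin from degradation, and Flt3l encodes the ligand of FLT3, a growth factor for dendritic cells. Nosip binds nitric oxide synthases, Rcn3 is a calcium-binding protein of the endoplasmic reticulum, and Aldh16a1 belongs to the aldehyde dehydrogenase family. Rpl13a is a protein of the large ribosomal subunit, and Pih1d1 is a subunit of the R2TP complex, a co-chaperone of HSP90.

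Start sites of 5 of the genes are shown because the results turn on them. Slc17a7 had by far the largest difference, Aldh16a1 and Pih1d1 overlap at their starts on opposite strands, and Fcgrt and Rpl13a were the members with the lowest p for genotype. Each sequence is the RefSeq promoter window of GRCm38.p6 (the mm10 assembly), 250 bases before to 50 after the start, 5′ to 3′ on the strand of the gene, with capitals on every match to the motifs searched. These were the GC box (GGGCGG), the CCAAT box (CCAAT), the TATA box (TATAAA), an E-box (CACGTG), an ETS core (CCGGAA), a cAMP response element (TGACGTCA) and the NRF1 site, each on both strands.
Slc17a7 (chr7:45163671-45163970, plus strand): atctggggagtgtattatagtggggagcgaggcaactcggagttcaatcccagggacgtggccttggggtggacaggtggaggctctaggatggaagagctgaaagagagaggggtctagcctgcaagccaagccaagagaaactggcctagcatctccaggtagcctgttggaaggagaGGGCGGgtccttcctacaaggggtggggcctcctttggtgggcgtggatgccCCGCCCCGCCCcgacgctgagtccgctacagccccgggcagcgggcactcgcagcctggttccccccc
Pih1d1 (chr7:45154053-45154352, plus strand): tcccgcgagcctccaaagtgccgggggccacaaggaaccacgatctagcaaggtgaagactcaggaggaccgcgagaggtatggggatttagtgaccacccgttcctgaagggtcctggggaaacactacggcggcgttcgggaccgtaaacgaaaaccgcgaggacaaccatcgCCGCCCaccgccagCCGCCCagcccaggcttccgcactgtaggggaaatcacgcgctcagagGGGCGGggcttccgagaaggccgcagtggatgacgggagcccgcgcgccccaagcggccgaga
Aldh16a1 (chr7:45154487-45154786, minus strand): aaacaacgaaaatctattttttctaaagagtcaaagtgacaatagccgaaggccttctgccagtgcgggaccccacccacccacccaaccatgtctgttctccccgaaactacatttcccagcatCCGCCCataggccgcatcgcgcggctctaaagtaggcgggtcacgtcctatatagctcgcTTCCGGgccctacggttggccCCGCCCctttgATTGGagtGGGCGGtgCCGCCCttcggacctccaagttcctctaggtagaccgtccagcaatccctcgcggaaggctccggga
Fcgrt (chr7:45103773-45104072, minus strand): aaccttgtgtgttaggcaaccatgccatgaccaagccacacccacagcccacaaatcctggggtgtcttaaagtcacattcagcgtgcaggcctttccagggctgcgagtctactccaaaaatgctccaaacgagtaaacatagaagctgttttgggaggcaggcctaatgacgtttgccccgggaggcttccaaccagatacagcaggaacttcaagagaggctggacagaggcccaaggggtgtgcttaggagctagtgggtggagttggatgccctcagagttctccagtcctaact
Rpl13a (chr7:45128696-45128995, minus strand): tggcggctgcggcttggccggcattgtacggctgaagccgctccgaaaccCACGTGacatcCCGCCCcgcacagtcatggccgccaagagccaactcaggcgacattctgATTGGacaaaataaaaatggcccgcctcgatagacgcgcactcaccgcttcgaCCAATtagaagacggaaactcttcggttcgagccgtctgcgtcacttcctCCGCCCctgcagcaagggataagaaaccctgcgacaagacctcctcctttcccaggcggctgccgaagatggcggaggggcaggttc

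A GC box was found in 7 of the 8 windows, against 35.9% of the 27025 promoter windows in the table. Fcgrt was the member without one, and its window held none of the 7 motifs. The GC boxes of Slc17a7 include a pair that overlap by 1 base. The CCAAT box was in 3 windows (Rcn3, Rpl13a and Aldh16a1), against 37.9% of all. The ETS core was in 2 (Nosip and Aldh16a1), against 15.2% of all, and the E-box in that of Rpl13a alone, against 7.24%. The TATA box (14.2% of all), the cAMP response element (1.88%) and the NRF1 site (0.977%) were in none of the 8. The windows held 5 to 31 CpG dinucleotides with a median of 13.5, against a median of 7 over all promoters. A match to a motif describes the letters of the window and does not show that a factor binds there.

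Slc17a7 (NM_182993, plus strand, 45163921 to 45176139) was abundant in every heart of litter A and low in every heart of litter B. In litter A it had 3778 and 3916 normalized counts in control 1 and control 2 and 3484 and 3085 in iSOD2 7 and iSOD2 8. In litter B it had 207, 203 and 179.6 in control 3, control 4 and control 6, and 223, 203 and 219 in iSOD2 5, iSOD2 9 and iSOD2 10. The lowest heart of litter A was 13.9 times the highest of litter B. The means were 3566 ± 368 (SD, n = 4) and 206 ± 15.2 (SD, n = 6), a log2 difference of −4.11 (SE 0.09, litter B minus litter A, with genotype in the model). This was the largest absolute litter difference among the 12151 genes that averaged 50 or more normalized counts over the mice. Per kb of exon, the level of Slc17a7 was 1219 in litter A, above 95.6% of the 17728 genes fitted, and 70.3 in litter B, above 47.6% of them.

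Among 15 other genes of the SLC17 and SLC1 families, not all of which carry glutamate, 9 were tested between litters. Of these 0 were called in either direction (median log2 0.06). The most abundant were Slc1a5, the neutral amino acid transporter ASCT2, with a log2 litter difference of 0.06, and Slc17a5, the lysosomal sialic acid carrier sialin, with −0.06. Per kb of exon, Slc17a7 stood above each of the 15 in litter A, where the next, Slc1a5, had 127. In litter B it stood below Slc1a5 at 132. Slc17a6, which encodes the other main vesicular glutamate transporter of neurons, had 0 counts in all 10 libraries, which allows up to 3 counts by counting error alone.

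Markers of neurons did not share the litter pattern of Slc17a7. Their summed level over 10 genes was 733 to 879.96 normalized counts in litter A and 625 to 849 in litter B, with 0 called between litters, and Snap25, a defining gene of synapses, was at 0 in every library. Of 6 markers of autonomic neurons, Th and Chat were at 0 in every library, and the summed level was 78.04 to 125 in litter A and 78.4 to 151 in litter B. In whole tissue, fewer cells of a type and less RNA per cell cannot be told apart.

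**Figure D1:**
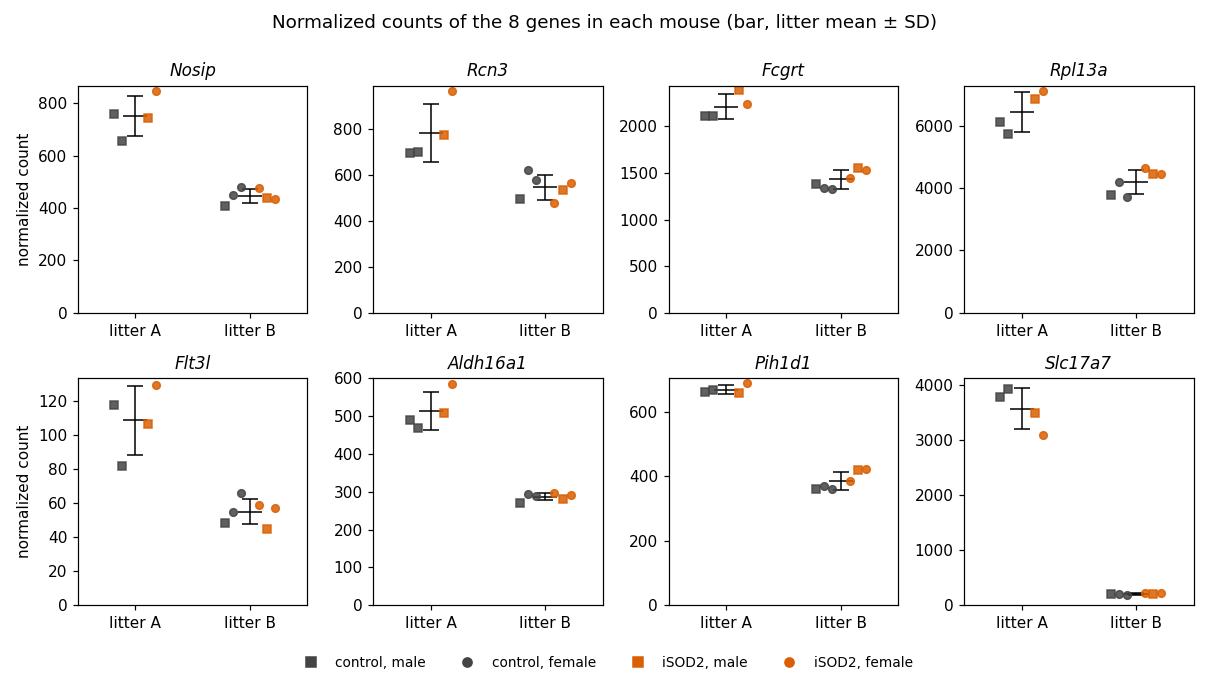
Normalized counts of each of the 8 genes (vertical axes, linear and starting at 0) in the 4 mice of litter A and the 6 mice of litter B. Squares are males and circles females, grey is control and orange iSOD2, and bars give the mean and SD of a litter. Every mouse of litter A lies above every mouse of litter B in each panel, and Slc17a7 has the widest gap, 3085 to 3916 against 179.6 to 223.

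The other 7 genes were lower in litter B by smaller amounts, 30.3% to 49.5% of the mean of litter A with a median of 40.5%. Their log2 differences ran from −0.98 to −0.52 with a median of −0.75. In all 8 genes every mouse of litter A was above every mouse of litter B, a pattern shown by 2.03% of the 12151 genes that averaged 50 or more. All 8 were called lower in litter B (adjusted p at most 0.05 and an absolute log2 difference above 0.25), as were 0.977% of the 15654 genes tested. Both counts follow from how the genes were chosen.

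Flt3l (NM_013520, minus strand, 45131189 to 45136432) was the scarcest of the 8 and had the largest difference after Slc17a7. It had 118, 81.8, 106 and 129 normalized counts in control 1, control 2, iSOD2 7 and iSOD2 8 of litter A. In litter B its lowest, median and highest values were 45.0, 55.9 and 65.8. The log2 difference was −0.98 (SE 0.18). The lists of FLT3 and dendritic cell genes gave no other called gene between litters, with 0 of 6 tested (median log2 −0.26), and its most abundant genes, Zbtb46 and Clec9a, had 0.13 and 0.14.

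Aldh16a1 (NM_145954, minus strand, 45141840 to 45154538) and Pih1d1 (NM_029406, plus strand, 45154303 to 45160064) overlap by 236 bp at their starts. Since strand is not stated for the counting, reads in the overlap cannot be assigned to one of them. Aldh16a1 had 491, 469.7, 508 and 586 normalized counts in litter A (control 1, control 2, iSOD2 7, iSOD2 8) and a lowest, median and highest of 271, 289 and 298 in litter B. The log2 difference was −0.84 (SE 0.08). Pih1d1 had 662, 666, 658 and 688 in litter A in the same order, and 359.9, 376 and 421 as lowest, median and highest in litter B, a log2 difference of −0.80 (SE 0.07). The SD of the log2 level within litters A and B was 0.14 and 0.05 for Aldh16a1 and 0.03 and 0.10 for Pih1d1. On that scale Pih1d1 in litter A varied least, with 668 ± 13.4 normalized counts (SD, n = 4). Of 18 other aldehyde dehydrogenases and 16 other genes of the R2TP complex and its partners tested between litters, 0 were called. Aldh6a1 and Aldh2, the most abundant dehydrogenases of the list, had log2 differences of −0.06 and −0.05, and Hsp90ab1 and Pdrg1 of the R2TP list −0.08 and −0.05.

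Nosip (NM_025533, plus strand, 45062429 to 45078503) lies at the proximal end. Its levels in litter A were 759.7, 658, 742 and 846 normalized counts in control 1, control 2, iSOD2 7 and iSOD2 8. Litter B gave a lowest, median and highest of 409, 443 and 480.1, and the log2 difference was −0.75 (SE 0.08). Of 11 nitric oxide synthases and partners tested, 2 were called, both higher in litter B: Cav1, the scaffold of caveolae (log2 0.50, SE 0.05, DESeq2 adjusted p 1.83e-16), and Nostrin, which traffics the endothelial synthase (0.43, SE 0.12, DESeq2 adjusted p 0.0119). Both p-values rest on the spread between mice, with a single litter on each side. The most abundant gene of that list after Cav1 was the chaperone Hsp90aa1, with 0.06. Of the 4 endothelial markers 1 was also called higher in litter B, where their summed level was 15984 to 18535 against 15224 to 16266 in litter A. Its part in these values was not tested.

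Rcn3 (NM_026555, minus strand, 45082914 to 45092213) had the smallest difference, and its litters came closest to overlapping. The values in litter A were 694, 701, 775 and 964 normalized counts in control 1, control 2, iSOD2 7 and iSOD2 8. Those in litter B were 497, 621 and 579 in control 3, control 4 and control 6, and 478, 534 and 566 in iSOD2 5, iSOD2 9 and iSOD2 10. The lowest of litter A was 1.12 times the highest of litter B, and the log2 difference was −0.52 (SE 0.10). Among 4 other CREC proteins of the secretory pathway 0 were called between litters, and the most abundant, Calu and Sdf4, had log2 differences of 0.06 and −0.13.

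Fcgrt (NM_010189, minus strand, 45092993 to 45103822) and Rpl13a (NM_009438, minus strand, 45125563 to 45128745) were the members with most counts in litter B. Fcgrt had 2114, 2106, 2383 and 2237 normalized counts in control 1, control 2, iSOD2 7 and iSOD2 8 of litter A. In litter B it had 1379.9, 1338 and 1327 in control 3, control 4 and control 6, and 1448, 1555 and 1532 in iSOD2 5, iSOD2 9 and iSOD2 10. The log2 litter difference was −0.63 (SE 0.05). Rpl13a had 6105, 5724, 6846 and 7114 in litter A in the same order as Fcgrt. Litter B gave 3779.8, 4207 and 3713 in its controls and 4635, 4435 and 4455 in its iSOD2 mice, in the order given for Fcgrt, and a log2 litter difference of −0.62 (SE 0.05). Within each litter, every iSOD2 mouse was above every control in both genes. Of 83 other cytosolic ribosomal protein genes tested between litters, 0 were called, with a median log2 of −0.01. Of 9 other genes of IgG and albumin handling, 0 were called.

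Most genes beyond the proximal edge were not called between litters. Prrg2, which ends 777 bp before Nosip, had 71.0 to 98.8 normalized counts in litter A and 59.8 to 92.9 in litter B (log2 −0.20, SE 0.16). Of the 19 genes that averaged 50 or more within 0.25 Mb on that side, 1 was called, Prr12, which was lower in litter B (log2 −0.32, SE 0.09, DESeq2 adjusted p 0.0220). Its litters overlapped, 278 to 419.6 against 211 to 359. Rras, the third gene out, had 0.20 (SE 0.11, DESeq2 adjusted p 0.406), and the median of the 19 was −0.10.

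On the distal side the gene next to Slc17a7 is Gfy, whose annotation ends 210 bp from it on the opposite strand. It had 8, 3.5, 10.5 and 12.5 deposited counts in control 1, control 2, iSOD2 7 and iSOD2 8 of litter A and 0 in each of the 6 libraries of litter B. Taking 3 counts over litter B as the floor, it was at least 16.6-fold higher in litter A. This covers counting error in litter B only, with the 34.5 counts of litter A taken as they stand. No strand is stated for the counting, and whether reads from Slc17a7 entered the counts of Gfy was not tested. Counts of Gfy are too few for it to belong to the genes that averaged 50 or more. Of the 7 such genes within 0.25 Mb, 1 was called, Tead2, 39614 bp from Slc17a7, which was higher in litter B (log2 0.53, SE 0.16, DESeq2 adjusted p 0.0281). Tead2 had 77.0 to 104 normalized counts in litter A and 94.7 to 148 in litter B. Trpm4 and Rpl14-ps1, the next out, had −0.06 and 0.09, and the median of the 7 was −0.04.

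**Figure D2:**
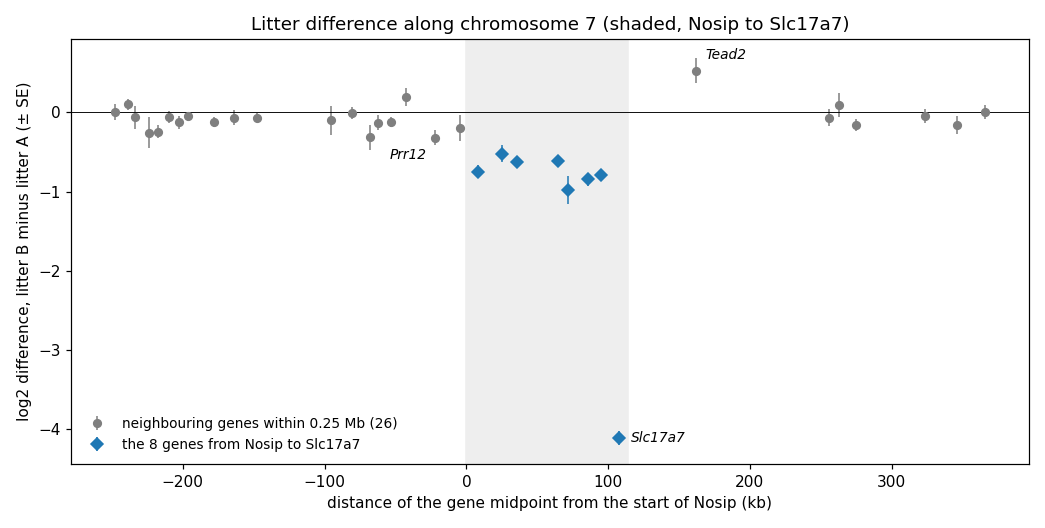
Log2 difference between litters (litter B minus litter A, ± SE, vertical axis) against the distance of each gene's midpoint from the start of Nosip in kb. Blue diamonds are the 8 genes and grey circles the 26 neighbours within 0.25 Mb. The 8 genes lie between −4.11 and −0.52, and the neighbours between −0.32 and 0.53.

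Small RNA genes inside the block were too scarce to follow. The best counted, Mir5121, lies within Rpl13a and had 33.4 to 52.9 normalized counts in litter A and 24.8 to 39.1 in litter B, which overlapped. Snord32a, Snord33, Snord34 and Snord35a, box C/D small nucleolar RNAs that also lie within Rpl13a, had a mean of at most 6.32 in either litter. Mir150 had 2.5 and 5 counts summed over litters A and B. Mir7055, within Slc17a7, had 4 counts in litter A and 0 in litter B. Counts of the rows within Rpl13a and Slc17a7 cannot be told apart from reads of those genes.

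Within a litter the 8 genes did not move as one. Over all 28 pairs of genes the correlation of log2 levels across the 10 mice, after the mean of each litter was taken out, had a median of 0.21 and ran from −0.77 to 0.89, with 21 pairs above 0. Nosip and Flt3l had the highest (0.89), followed by Nosip and Aldh16a1 (0.85). Slc17a7 went the other way from Rcn3 (−0.77) and Nosip (−0.64). The pairs share libraries and size factors, and litter B gives 6 of the 10 points. The pooled SD within litters of the log2 level had a median of 0.12 over the 8 genes and of 0.13 over the genes that averaged 50 or more.

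Across the 10 mice, without taking out the litter, the levels most like Slc17a7 included those of Pih1d1 (Pearson r 0.98 in log2), Aldh16a1 (0.97) and Fcgrt (0.97), all 3 members, and Cntn5 on chromosome 9 (0.96), a neuronal adhesion gene with 84.8 ± 9.85 normalized counts in litter A and 29.4 ± 5.50 in litter B (SD, n = 4 and 6). The levels least like it belonged to AA465934 (−0.98), Xaf1 (−0.98) and Rtn4rl1 (−0.97) on chromosome 11, Cep128 on chromosome 12 (−0.96) and Tubb2a on chromosome 13 (−0.96). AA465934 had 21.2 ± 3.75 in litter A and 158 ± 21.3 in litter B, and Xaf1 124 ± 26.2 and 368 ± 34.8. With levels this far apart between litters, such correlations over 12148 genes mostly record the litter.

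Genotype was compared to ask whether embryonic knockdown of Sod2 left a difference in these genes in either litter. With litter left out of the model, none of the 8 was called in all 10 mice (281 of the 9479 genes tested were, 2.96%). Flt3l had no DESeq2 adjusted p here, with litter in the model or within litter B, so DESeq2 could not call it there. At an unadjusted p under 0.05 there were 0 of the 8 in both DESeq2 and edgeR. The spread between litters then entered the error, and for Slc17a7 the log2 difference was −0.20 with an SE of 1.19. With litter in the model the SE of Slc17a7 fell to 0.09, its log2 difference was −0.06 (95% CI −0.23 to 0.11, DESeq2 adjusted p 0.734), and again 0 of the 8 were called, against 3.44% of 9474 genes tested, with 2 at an unadjusted p under 0.05 in DESeq2 and 2 in edgeR.

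Rpl13a and Fcgrt nonetheless passed the adjusted p with litter in the model, at a size below the threshold of 0.25. Rpl13a was higher in iSOD2 mice by a log2 of 0.22 (SE 0.05, DESeq2 adjusted p 0.000570) and Fcgrt by 0.15 (SE 0.05, DESeq2 adjusted p 0.0301), where 7.26% of genes tested passed that adjusted p at any size. A two-sided exact permutation test of genotype within litter gave p = 0.0167 for both, the smallest that its 120 arrangements can give. Both were higher in 2 of 2 iSOD2 mice of litter A and 3 of 3 of litter B than in any control littermate, a pattern seen in 5.14% of the 12151 genes that averaged 50 or more. Neither passed after a trend with exon length was removed (Rpl13a 0.10, DESeq2 adjusted p 0.275, and Fcgrt 0.07, DESeq2 adjusted p 0.742) or in edgeR's quasi-likelihood test (adjusted p 0.0515 and 0.0836). Rpl13a kept its adjusted p without any 1 mouse, and without control 4 it also exceeded the threshold of size and was called (0.25, DESeq2 adjusted p 1.59e-05). Fcgrt passed without iSOD2 5 or iSOD2 8 but missed the adjusted p without any 1 of the other 8 mice (0.0808 to 0.172).

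Other genes of the same groups moved in the same direction as Rpl13a. Of 81 cytosolic ribosomal protein genes tested besides those of the block, 39 were higher in iSOD2 mice at an adjusted p of at most 0.05 and 0 lower, with a median log2 of 0.15 against −0.01 over all genes tested. Only 5 of them exceeded the threshold of 0.25 as well: Rpl12 (0.27), Rpl23 (0.28), Rpl31 (0.25), Rps25 (0.28) and Rps27l (0.29). The most abundant of the list, Rplp0, had 0.10. The list was counted in this fit alone, not after the exon length trend was removed or in edgeR. Over all genes, calls with litter in the model fell from 326 to 184 after that removal and to 123 in edgeR. B2m, the light chain partner of the Fcgrt product, was also called higher (0.29, DESeq2 adjusted p 0.0442), alone among the 4 genes of IgG and albumin handling tested. Markers of hepatocytes, cells in which Fcgrt and albumin are known to be abundant, also differed between mice. Their summed level over 7 genes was 85.5 to 8727 normalized counts in controls and 4323 to 18327 in iSOD2 mice, of which 85.5 was in control 1 and 2359 in control 2, while Fcgrt was 2114 and 2106 in those mice. The part of these markers in the Fcgrt difference was not tested.

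Of the other 6 genes, Flt3l had no DESeq2 adjusted p and the rest did not pass. Pih1d1 was 0.10 (95% CI −0.04 to 0.24, exact p = 0.05), Aldh16a1 0.10 (−0.06 to 0.26, exact p = 0.133) and Nosip 0.07 (−0.08 to 0.23, exact p = 0.367), all on the log2 scale with litter in the model. Rcn3 was 0.07 (−0.13 to 0.27, exact p = 0.65) and Flt3l 0.07 (−0.28 to 0.41, exact p = 0.733), and for Slc17a7 the exact p was 0.833. Leaving out 1 mouse turned the sign of 3 of them: Rcn3 was −0.024 and Slc17a7 0.0066 without iSOD2 8, and Flt3l was −0.020 without iSOD2 8 and −0.047 without control 2. These intervals reach past the threshold of 0.25 for Flt3l, Rcn3 and Aldh16a1. Of the related lists, 1 of 12 other aldehyde dehydrogenases was called higher in iSOD2 mice (Aldh1a1, 0.37, DESeq2 adjusted p 0.00315). Among the SLC17 and SLC1 genes, nitric oxide synthase partners, CREC proteins, FLT3 genes and R2TP partners 0 were called, of 2, 8, 4, 2 and 14 tested.

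**Figure D3:**
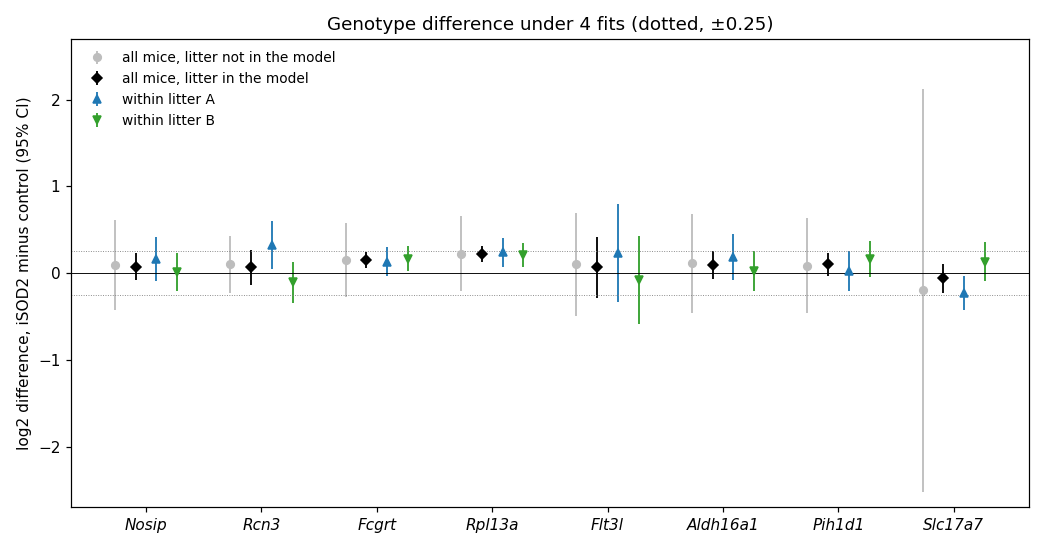
Log2 difference between genotypes (iSOD2 minus control, vertical axis) with its 95% confidence interval for each of the 8 genes under 4 fits: all mice without litter, all mice with litter in the model, and within each litter. Intervals without litter are the widest, from −2.53 to 2.13 for Slc17a7, and with litter in the model those of Fcgrt (0.06 to 0.24) and Rpl13a (0.13 to 0.32) lie above 0.

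Within litter A, where 2 iSOD2 mice were set against 2 controls, 0 of the 8 genes were called, against 0.456% of genes tested, while 3 had an unadjusted p under 0.05 in DESeq2 and 3 in edgeR, which also called 0. Slc17a7 was lower in iSOD2 mice, 3284 ± 282 against 3847 ± 97.9 normalized counts (SD, n = 2 each), a log2 difference of −0.23 (SE 0.10) that did not pass (DESeq2 adjusted p 0.428). Rcn3 was higher, 869.9 ± 133 against 697 ± 5.40 (0.32, SE 0.14, DESeq2 adjusted p 0.446). Rpl13a differed by 0.24 (SE 0.08, DESeq2 adjusted p 0.237) and Fcgrt by 0.13 (SE 0.09, DESeq2 adjusted p 0.791). Without iSOD2 8, the only female of litter A, the log2 difference was −0.14 for Slc17a7 and 0.15 for Rcn3, and without iSOD2 7 it was 0.08 for Fcgrt.

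Within litter B, with 3 mice of each genotype, 0 of the 8 were called, against 0.624% of genes tested, and Flt3l had no DESeq2 adjusted p. An unadjusted p under 0.05 was found for 2 in DESeq2 and 3 in edgeR, which also called 0. Slc17a7 was 215 ± 10.3 normalized counts in iSOD2 mice and 196 ± 14.8 in controls (SD, n = 3 each), a log2 difference of 0.13 (SE 0.11, DESeq2 adjusted p 0.717), or 0.07 without control 6, and the genotypes overlapped. Rcn3 was 526 ± 44.6 against 566 ± 62.9 (−0.11, SE 0.12, DESeq2 adjusted p 0.798), a difference that ran from −0.19 without control 3 to −0.03 without control 4, with −0.16 without iSOD2 10 and −0.04 without iSOD2 5. Rpl13a differed by 0.21 (SE 0.07, DESeq2 adjusted p 0.141) and Fcgrt by 0.17 (SE 0.07, DESeq2 adjusted p 0.336), close to their sizes in litter A. Pih1d1 was 408 ± 20.9 against 363 ± 4.996 (0.16, SE 0.10, DESeq2 adjusted p 0.564), and in litter A it was 673 ± 21.2 against 664 ± 3.20.

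Whether the genotype difference itself differed between litters was tested as the interaction of genotype and litter. It was 0.36 on the log2 scale for Slc17a7 (SE 0.15, unadjusted p 0.0167) and −0.43 for Rcn3 (SE 0.18, unadjusted p 0.0207), and neither passed (DESeq2 adjusted p of 1 for both). Without iSOD2 8 the interaction of Rcn3 was −0.26. None of the 8 was called, against 0.00564% of genes tested (1 of 17721). DESeq2 and edgeR each gave 2 at an unadjusted p under 0.05, and edgeR called 0. For Fcgrt and Rpl13a the interaction was 0.04 (95% CI −0.18 to 0.26) and −0.03 (−0.24 to 0.18).

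**Figure D4:**
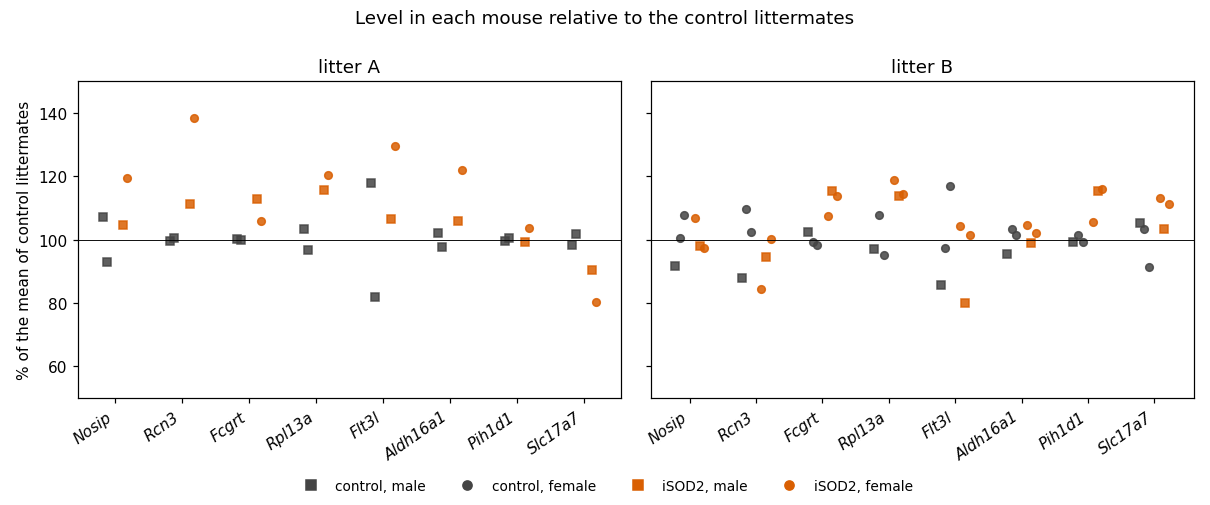
Level of each of the 8 genes in each mouse as a percentage of the mean of the control littermates (vertical axis), for litter A on the left and litter B on the right. Squares are males and circles females, grey is control and orange iSOD2. In Slc17a7 the 2 iSOD2 mice of litter A lie at 90.6% and 80.2% and the 3 of litter B at 103% to 113%, and in Rcn3 at 111% and 138% against 84.6% to 100.1%.

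Sex was unequal between litters, with 1 female of 4 in litter A and 4 of 6 in litter B, so females were compared with males with litter and genotype in the model. None of the 8 genes was called, against 0.358% of genes tested, while 1 had an unadjusted p under 0.05 in DESeq2 and 4 in edgeR, which also called 0. The largest difference was that of Flt3l (log2 0.35, female minus male, SE 0.21, DESeq2 adjusted p 0.999), and Rcn3 had 0.23 (SE 0.10, DESeq2 adjusted p 0.734). Slc17a7 had −0.12 (SE 0.09, DESeq2 adjusted p 0.9998). The single female of litter A, iSOD2 8, had the highest Nosip, Rcn3, Flt3l, Aldh16a1, Rpl13a and Pih1d1 and the lowest Slc17a7 of its litter, and sex and genotype cannot be told apart in 1 mouse. The litter difference of Slc17a7 was −4.18 in males alone, −3.90 in females alone, −4.29 in controls alone and −3.93 in iSOD2 mice alone. That of Rcn3 was −0.30 in controls alone and −0.73 in iSOD2 mice alone.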

How the data were processed

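Expression was measured by RNA-seq of rRNA-depleted total RNA from 10 mouse hearts. The deposited table holds expected or estimated counts per gene, which the authors made by trimming reads, aligning them to mm10 with STAR and summing them over exons with HOMER, 1 transcript a gene, with no strand option stated. Counts come in steps of 0.5, without normalization. Another unit in the deposited table, the exon length in bp of each transcript, served here for levels per kb. Coordinates are those of the table, counted from 1.

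Counts were rounded, and a gene needed a sum of at least 10 to be fitted (17728 of 24537 genes). Genotype, sex and the interaction of genotype and litter were tested in DESeq2 1.42.0 (Wald test, R 4.3.3). Litter differences and calls came from a DESeq2 fit with genotype in the model. For the members they are a description and not a test, and for every gene their p-values treat littermates as replicates. Genes were called at a Benjamini-Hochberg adjusted p of at most 0.05 and an absolute log2 difference above 0.25, after the study's methods. Fold changes were not shrunken. DESeq2 left Flt3l without an adjusted p in 3 of the genotype comparisons. Within-litter differences came from 1 model of all 10 mice. Exact tests, two-sided, used log2(normalized count + 1) and permuted genotype within litter. Fits were tested on simulated counts. Replicates are mice, and no source says whether libraries were made in batches. Totals of 16448090.5 to 24263085.5 counts per library leave the spread between mice as the main error for all but the scarcest genes, and intervals and floors from counts cover counting error only.

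Alternatives were edgeR 4.0.16 quasi-likelihood, TMM scaling, other count filters, sex as a covariate, removal of an exon length trend, each litter, sex or genotype alone, and leaving out each mouse. The genes named are the 8 members, the rows between them, the first 3 expressed genes on each side, the 5 genes most and the 5 least like Slc17a7, and, of each list of related genes, the called genes and the 2 most abundant. Gfy and Slc17a6 were added after their values were seen. Members, lists and tests were chosen with earlier results of these data known. A result under these rules is not reported here.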

Additional observations from a re-analysis of the deposited data

How the results depend on the processing

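Of 666 values recomputed under another setting, 615 kept their direction and side of the threshold or moved by less than the spread between mice, and 18 reversed, none of them a called value. For genotype with litter in the model, Rcn3 was −0.033, Flt3l −0.056 and Pih1d1 −0.018 after the exon length trend was removed, and Flt3l was −0.018 with sex added. With 1 mouse left out, Rcn3 ran from −0.024 to 0.13, Flt3l from −0.047 to 0.15 and Slc17a7 from −0.11 to 0.0066. Without litter, Slc17a7 was 1.05 with sex as a covariate and −0.83 to 0.40 with 1 mouse left out. The interaction ran from −0.0096 to 0.081 for Fcgrt and from −0.078 to 0.028 for Rpl13a, and the sex difference of Slc17a7 from −0.18 to 0.012, with 1 mouse left out. With litter in the model, 0 of the 8 genes were called for genotype, 0 to 1 when 1 mouse was left out, and within litter B likewise 0 to 1, the 1 being Rpl13a without control 4 (log2 0.25, DESeq2 adjusted p 1.59e-05 with litter in the model). The members with an adjusted p of at most 0.05 numbered 2, fell to 1 to 2 when 1 mouse was left out, and to 0 both after the exon length trend was removed and in edgeR's quasi-likelihood test; why was not tested. The genes behind that count are Fcgrt (log2 0.14 to 0.17 over the mice left out) and Rpl13a (0.20 to 0.25). The exact test gave an unadjusted p under 0.05 for 2 members, and for 2 to 3 when 1 mouse was left out. In all mice without litter, within litter A, in the interaction and for sex, 0 members were called under every setting run. The litter difference of Slc17a7 was −4.18 to −4.06 when 1 mouse was left out, and it moved by more than the spread between mice in females alone (−3.90), controls alone (−4.29) and iSOD2 mice alone (−3.93), where litter A is left with 1 or 2 mice. The median of the other 7 was −0.78 to −0.69 when 1 mouse was left out. Over all genes, edgeR called 123 with litter in the model against 326, and 0 against 281 without litter. No paired analysis was possible because the labels number control and iSOD2 mice differently and no number is shared. With 2 mice a genotype in litter A and 3 in litter B, differences of the size seen in Slc17a7 and Rcn3 within a litter were not separable from the spread between mice.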

Other observations

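The litter difference in neighbouring genes was also looked at along the other chromosomes, as a description. In the chromosomal order of the 12151 genes that averaged 50 or more normalized counts, 31 runs of 2 or more neighbours were called between litters in the same direction. The longest had 13 genes, from Hist1h2ak to Hist1h2bj in a cluster of histone genes on chromosome 13, all higher in litter B. The run from Nosip to Slc17a7 came next and was lower in litter B. The runs after it had 4 genes, among them Ly6e to Gpihbp1 on chromosome 15, higher in litter B, where Gpihbp1 encodes the endothelial anchor of lipoprotein lipase.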
